A study of Mus musculus with 9 samples.

Results

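The Eph receptors and ephrins, the semaphorins with their plexin and neuropilin receptors, the Slits with their Robo receptors, and the netrins with the receptors Dcc and neogenin make up the classical guidance families, and their transcript levels were followed in the early mouse pancreatic bud. Members were taken by gene symbol alone, as every measured gene whose symbol has the form of one of these families, a rule that uses no measured value. This gave 61 of the 18541 genes of the array table. They are 5 A-type and 3 B-type ephrins, 7 EphA and 5 EphB receptors, 20 semaphorins, 8 plexins, 2 neuropilins, 3 Slits, 4 Robo receptors, 2 netrins, Dcc and Neo1.

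Guidance molecules steer growing axons, and they also shape blood vessels and epithelia. Ephrins are held at the surface of a cell and activate Eph receptor tyrosine kinases on its neighbours, so that contact leads to repulsion or adhesion at cell boundaries, and EphB receptors are known in the mouse for the shaping of the branching pancreatic epithelium. Semaphorins bind plexins, with neuropilins as co-receptors for most secreted ones, Slits bind Robo receptors, and netrins bind Dcc, neogenin and the Unc5 receptors. In the mouse pancreas Slit and Robo genes are known for roles in bud development and in endocrine cells.

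The RNA came from dorsal pancreatic epithelium that was dissected by hand from embryos at e12.5, and was labelled with Cy3 for 1-colour Agilent arrays. Double heterozygous embryos (double het) had the genotype Sox9fl/+; Foxa3-Cre; Pdx1-/+, Sox9 heterozygous embryos (Sox9 het) were Sox9fl/+; Foxa3-Cre, and Pdx1 heterozygous embryos (Pdx1 het) were Pdx1-/+, where the Pdx1 allele is the Pdx1LacZko insertion. Each group had 3 samples, every sample pooled 3 embryos, and the groups were littermates. Foxa3-Cre deletes the floxed Sox9 allele in cells with Foxa3 regulatory activity, so any cell of another lineage in the dissected tissue may keep 2 Sox9 alleles, whereas the Pdx1 allele is changed in every cell. The Foxa3-Cre transgene was carried by the double het and Sox9 het groups and not by the Pdx1 het group, and wild-type samples were not analysed here. Whether the embryos came from separate litters per sample is not stated, so p-values measure only the spread between these pooled samples.

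Median intensity was between 347 and 353 in all 9 samples. Double het sample 3, whose title names both 3 and 4, and Sox9 het sample 1 stood farthest apart on the main axis of variation over all genes (37.6% of the variance), at 36.9 and -25.4, where the other 7 samples lay between -11.5 and 9.9. Sox9 itself had intensities of 292, 328 and 381 in double het samples, 294, 294 and 325 in Sox9 het samples and 239, 198 and 234 in Pdx1 het samples. The array table lists Pdx1 as Ipf1, its older symbol, and this gene had 1203, 1143 and 1352 in double het samples, 1316, 1573 and 1502 in Sox9 het samples and 1132, 1098 and 1080 in Pdx1 het samples. Where these probes lie relative to the changed part of each allele is not given, so neither gene checks the labels, and Sox9 was not lowest in the samples labelled Sox9 het. The list of pancreatic progenitor and epithelial genes had 16 of 21 symbols measured, with Sox9 and Ipf1 among them. Its symbols name Pdx1 also as Ipf1 and Onecut1 also as Hnf6. The list summed to 279330 to 288951 in double het, 234163 to 252839 in Sox9 het and 245003 to 293371 in Pdx1 het. Cpa1 alone gave 109553, 108986 and 112072 of these sums in double het samples and 75082, 85744 and 74082 in Sox9 het samples. In Pdx1 het samples it gave 108215, 80271 and 90628, so the order of the sums is in large part that of 1 gene. None of the genes in this list was at 0, 1 was in the dimmest 25% of probes and 0 passed the limma test over either single het, at median log2 ratios of 0.17 over Sox9 het and 0.18 over Pdx1 het. Its epithelial markers went opposite ways over Sox9 het, with Krt8 at 0.34 and Cdh1 at -0.22. In such bulk tissue, fewer cells of a type and less RNA per cell cannot be told apart.

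None of the 61 guidance genes passed the test in any comparison, at a limma adjusted p under 0.05 with Benjamini-Hochberg adjustment over all 18541 genes. Over all genes, 0.307% passed for double het over Sox9 het, 0.108% for double het over Pdx1 het, 0.232% for Sox9 het over Pdx1 het and 0.135% for double het over the mean of both single hets. The smallest adjusted p among the members was 0.0938, 0.122, 0.0789 and 0.0663 in the same order of comparisons. The largest unadjusted p that passed over all genes was 1.52e-04 for double het over Sox9 het, where the smallest among the members was 0.00128, that of Neo1. The comparisons with the single hets share the double het samples, and the values against both are given side by side below.

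Before adjustment, 25 of the 61 members had a limma p under 0.05 for double het over Sox9 het, which is 41% against 27.4% of all genes. In double het 14 of them were higher, where 14.2% of all genes were, and 11 lower, where 13.2% were. For double het over Pdx1 het there were 12, which is 19.7% against 16.1% of all genes, with 6 higher and 6 lower where 7.77% and 8.38% of all genes were. For Sox9 het over Pdx1 het there were 6, which is 9.84% against 6.29%, and for double het over the mean of the single hets 19, which is 31.1% against 26.7%. The first of these counts fell most without either of the 2 samples that stand apart. It was 10 without double het sample 3, where 15.4% of all genes had such a p, and 12 without Sox9 het sample 1, where 16.1% had. It was 18 without Sox9 het sample 2, where 19.4% had, and 21 to 24 without any other single sample. The median log2 ratio of the members was close to that of all genes, at 0.03 against 0.00 over Sox9 het and 0.04 against 0.01 over Pdx1 het. Their median size of log2 ratio was 0.21 against 0.16 for all genes over Sox9 het and 0.15 against 0.12 over Pdx1 het.

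**Figure D1:**
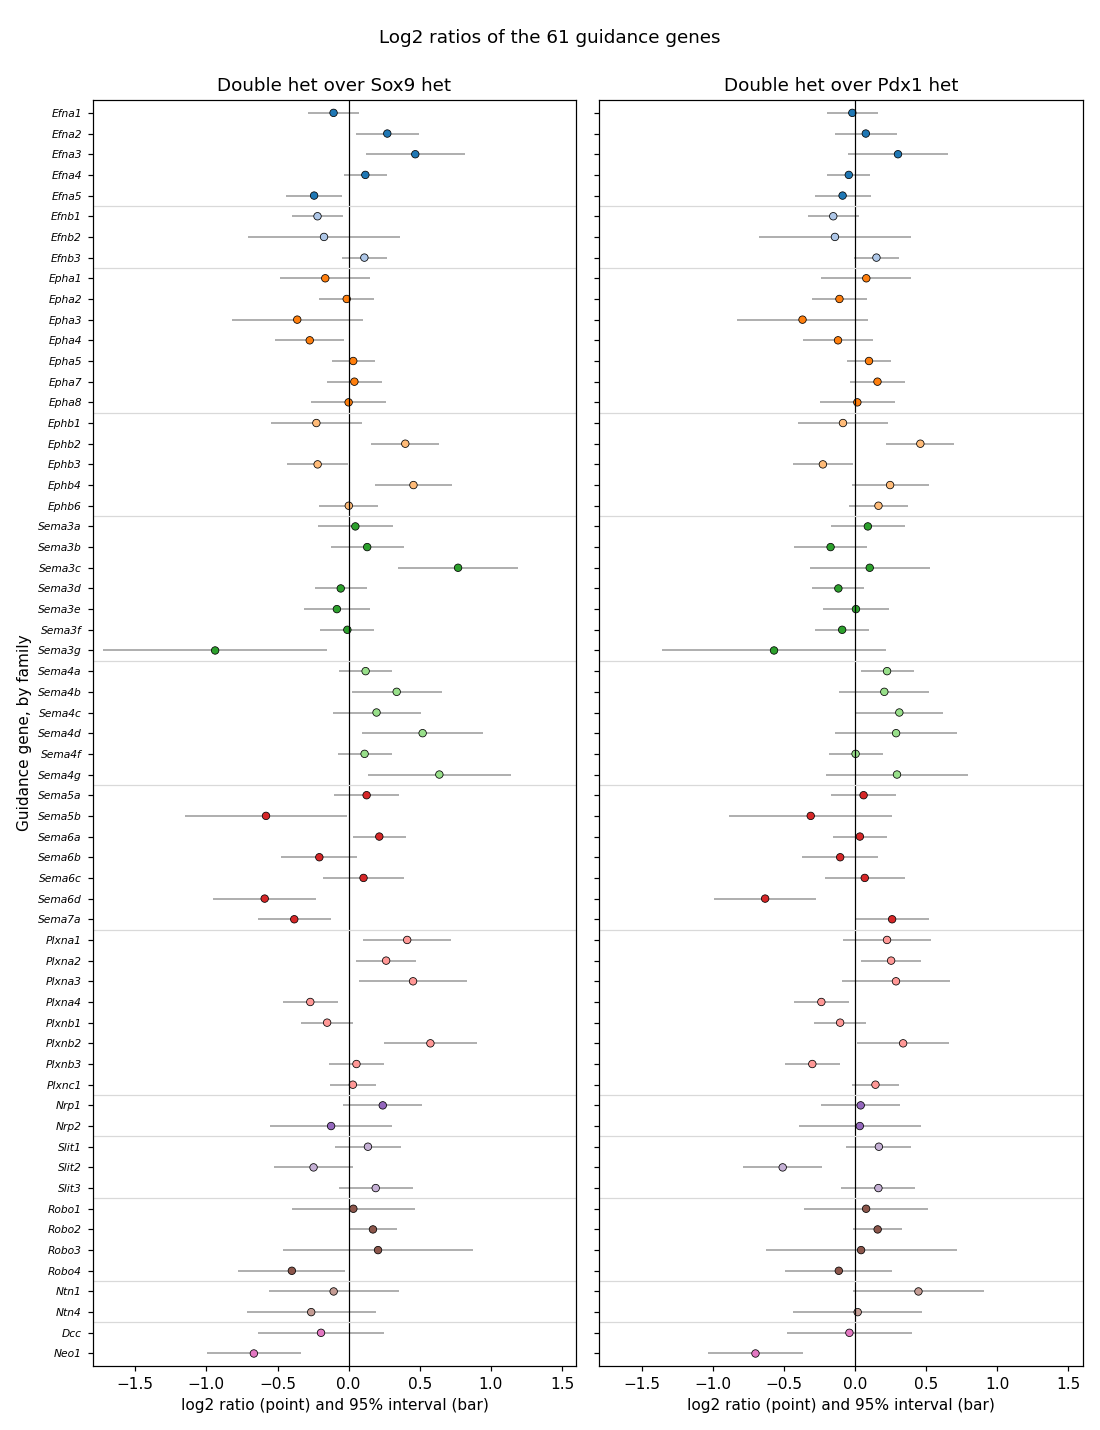
Log2 ratio of each of the 61 guidance genes (points, coloured by family) with its 95% interval from the limma fit (bars), for double het over Sox9 het on the left and over Pdx1 het on the right. Neo1, Sema6d, Plxna4 and Ephb3 lie below 0 and Ephb2, Plxna2 and Plxnb2 above 0 with intervals clear of 0 in both panels. The interval of Sema7a is below 0 on the left and above 0 on the right. The intervals of Sema3g are the widest.

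Neo1, Sema6d and Ephb2 had the smallest adjusted p of all members for double het over the mean of the single hets. The stretches before their annotated starts are shown for that reason, and whether each acts as a promoter was not tested. Neo1 encodes neogenin, a receptor of netrins and of repulsive guidance molecules, Sema6d encodes a transmembrane semaphorin, and Ephb2 encodes a receptor tyrosine kinase for B-type ephrins. The 250 bases before each annotated start are given 5′ to 3′ from RefSeq on build GRCm38.p6, and Sema6d has 2 annotated starts. The stretches are chr9:59036442-59036691 on the minus strand for Neo1, chr4:136836013-136836262 on the minus strand for Ephb2, and chr2:124089719-124089968 and chr2:124653331-124653580 on the plus strand for Sema6d. Capitals mark matches on either strand to 3 short motifs, ACAAT and ACAAAG, which are cores bound by SOX-type factors, and TAAT, a core of homeodomain sites, and matches of TAAT and of its reverse complement ATTA may lie end to end.
Neo1: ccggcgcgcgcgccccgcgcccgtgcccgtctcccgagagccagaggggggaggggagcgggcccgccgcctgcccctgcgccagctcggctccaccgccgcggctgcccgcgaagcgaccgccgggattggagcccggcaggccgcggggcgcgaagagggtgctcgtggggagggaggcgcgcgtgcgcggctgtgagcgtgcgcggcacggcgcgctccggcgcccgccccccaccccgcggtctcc
Ephb2: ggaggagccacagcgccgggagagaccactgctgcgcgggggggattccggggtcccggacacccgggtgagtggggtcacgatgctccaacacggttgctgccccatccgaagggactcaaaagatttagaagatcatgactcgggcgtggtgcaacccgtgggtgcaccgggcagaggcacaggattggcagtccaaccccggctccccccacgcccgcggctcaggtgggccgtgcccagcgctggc
Sema6d, start 1: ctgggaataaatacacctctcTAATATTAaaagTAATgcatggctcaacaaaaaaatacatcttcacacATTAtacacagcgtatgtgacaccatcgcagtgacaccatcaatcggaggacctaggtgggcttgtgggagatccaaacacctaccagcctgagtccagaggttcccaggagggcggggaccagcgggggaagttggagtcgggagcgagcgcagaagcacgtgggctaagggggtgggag
Sema6d, start 2: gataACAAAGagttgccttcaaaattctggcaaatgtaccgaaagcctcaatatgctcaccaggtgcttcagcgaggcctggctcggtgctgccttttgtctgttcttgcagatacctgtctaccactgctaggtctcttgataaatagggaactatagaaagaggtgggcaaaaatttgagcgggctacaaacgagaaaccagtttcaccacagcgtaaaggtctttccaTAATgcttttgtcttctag
The Neo1 and Ephb2 windows hold none of the 3 motifs. The Neo1 window is 83.2% G and C, the Ephb2 window 68.4%, and the Sema6d windows 52.4% and 45.2%, beside a median of 52.4% over all 32851 RefSeq windows of the same length. The first Sema6d window holds 4 matches of TAAT or ATTA and the second holds 1, beside 1 match of ACAAAG. Windows were found for 52 of the 61 members, 68 windows in all, of which 19.1% hold ACAAT, 10.3% ACAAAG and 39.7% TAAT, against 27.7%, 16.5% and 54.9% of all windows. A match is only a match of letters, and no binding was measured here.

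The A-type ephrins are anchored to the outer membrane by a lipid. Efna3 had 229, 183 and 306 in double het samples, 168, 178 and 162 in Sox9 het samples and 188, 184 and 198 in Pdx1 het samples. All double het samples were above all Sox9 het samples, while double het sample 2 lay below the Pdx1 het samples. The log2 ratio was 0.47 ± 0.16 (standard error) over Sox9 het and 0.30 ± 0.16 over Pdx1 het (limma adjusted p = 0.122 and 0.358), and 0.27 and 0.11 without double het sample 3. Efna2 had 644, 557 and 703 in double het samples, 555, 520 and 497 in Sox9 het samples and 597, 565 and 639 in Pdx1 het samples, so the double het samples were above the Sox9 het ones by a narrow margin and overlapped the Pdx1 het ones. Efna5 had the opposite direction, with 5057, 4529 and 4344 in double het samples, 5931, 5331 and 5215 in Sox9 het samples and 4602, 5161 and 5027 in Pdx1 het samples. Its log2 ratio was -0.24 over Sox9 het and -0.09 over Pdx1 het. Efna1 and Efna4 differed by at most 0.12 on the log2 scale in either comparison.

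The B-type ephrins span the membrane and can signal back into their own cell. Efnb1 had 6082, 6001 and 5120 in double het samples, 6728, 6827 and 6416 in Sox9 het samples and 6353, 6355 and 6366 in Pdx1 het samples, and every double het sample was below every single het sample. This gave a log2 ratio of -0.22 ± 0.08 over Sox9 het and -0.15 ± 0.08 over Pdx1 het (adjusted p = 0.138 and 0.363), or -0.14 and -0.07 without double het sample 3. Efnb3 had the opposite order by a similarly small margin, with 2146, 2006 and 2000 in double het samples, 1821, 1914 and 1964 in Sox9 het samples and 1862, 1919 and 1763 in Pdx1 het samples. That is a log2 ratio of 0.11 over Sox9 het and 0.15 over Pdx1 het. Efnb2, known as a marker of arterial endothelium, had 2116, 2050 and 2485 in double het samples, 3822, 2076 and 1948 in Sox9 het samples and 2242, 2182 and 2957 in Pdx1 het samples. The groups overlapped, and Sox9 het sample 1 was far above the rest.

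Among the EphA receptors, 1 of 7, Epha4, had an unadjusted limma p under 0.05 over Sox9 het, where 27.4% of all genes had, and 0 of 7 over Pdx1 het, where 16.1% had. Epha4, which binds ephrins of both types, had 5338, 5716 and 4211 in double het samples, 6313, 5882 and 6113 in Sox9 het samples and 5620, 5536 and 5298 in Pdx1 het samples. The double het samples lay below the Sox9 het samples and overlapped the Pdx1 het samples, and the log2 ratio was -0.27 over Sox9 het and -0.12 over Pdx1 het, or -0.14 and 0.01 without double het sample 3. Epha3 ranged from 144 to 216 in double het, from 222 to 258 in Sox9 het and from 200 to 327 in Pdx1 het, with log2 ratios of -0.36 and -0.37 and standard errors of 0.20, or -0.19 and -0.20 without double het sample 3. Epha1, Epha2 and Epha7 were well above the dimmest 25% of probes and had log2 ratios between -0.16 and 0.16. Epha5 and Epha8 were in the dimmest 25% of all probes by mean intensity, below 118.7, and their log2 ratios lay between 0.00 and 0.10.

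The EphB receptors had ratios on both sides of 0. Ephb2 had 315, 354 and 385 in double het samples, 241, 257 and 303 in Sox9 het samples and 240, 263 and 262 in Pdx1 het samples. Every double het sample was above every single het sample. On the log2 scale the ratio was 0.40 ± 0.11 over Sox9 het, 0.46 ± 0.11 over Pdx1 het and 0.43 ± 0.09 over the mean of both, with a 95% interval of 0.22 to 0.64 for the last (limma adjusted p = 0.104, 0.139 and 0.0753). Without double het sample 3 it was 0.33 and 0.39 over the single hets. Ephb4, a receptor of Efnb2 known from veins, had 329, 310 and 384 in double het samples, 224, 255 and 266 in Sox9 het samples and 286, 251 and 327 in Pdx1 het samples, above all Sox9 het samples and overlapping the Pdx1 het samples. Its log2 ratio was 0.46 ± 0.12 over Sox9 het and 0.25 ± 0.12 over Pdx1 het (adjusted p = 0.103 and 0.340), or 0.37 and 0.16 without double het sample 3.

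Ephb3, which acts together with Ephb2 in several epithelia of the mouse, had the opposite direction, with 3402, 3140 and 2763 in double het samples, 3859, 3588 and 3356 in Sox9 het samples and 3663, 3778 and 3414 in Pdx1 het samples. All double het samples were below all Pdx1 het samples, while 1 double het sample was above 1 Sox9 het sample. The log2 ratio was -0.22 over Sox9 het and -0.23 over Pdx1 het (limma adjusted p = 0.176 and 0.291), and -0.14 and -0.15 without double het sample 3. Ephb1 and the kinase-inactive Ephb6 had overlapping groups throughout, with log2 ratios between -0.23 and 0.16.

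Of the 7 secreted class 3 semaphorins, Sema3c and Sema3g were the farthest from 0, in opposite directions. Sema3c, which signals through neuropilins and plexins, had 266, 238 and 382 in double het samples, 180, 173 and 157 in Sox9 het samples and 276, 217 and 326 in Pdx1 het samples. The Sox9 het samples were below all others, and the double het and Pdx1 het samples overlapped. That is a log2 ratio of 0.77 ± 0.19 for double het over Sox9 het (95% interval 0.35 to 1.19, limma adjusted p = 0.0999), 0.10 ± 0.19 for double het over Pdx1 het and -0.67 ± 0.19 for Sox9 het over Pdx1 het (adjusted p = 0.401). Without double het sample 3 the first was 0.57 and the second was -0.10, on the other side of 0.

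Sema3g, known for its expression in endothelium, had 834, 940 and 471 in double het samples, 2434, 1032 and 1035 in Sox9 het samples and 906, 1198 and 1112 in Pdx1 het samples. Sox9 het sample 1 was more than 1000 units above any other sample. On the log2 scale the ratio was -0.94 ± 0.35 over Sox9 het and -0.57 ± 0.35 over Pdx1 het (limma adjusted p = 0.141 and 0.417). Over Sox9 het it was -0.53 without Sox9 het sample 1 and -0.64 without double het sample 3, and over Pdx1 het it was -0.27 without double het sample 3. The vascular genes Robo4, Efnb2 and Nrp2 were highest in Sox9 het sample 1 too. By contrast, Ephb4, Nrp1 and the endothelial marker Plvap were lowest in that sample. Plvap was the exception among the endothelial markers measured. Erg, Sox17, Cldn5, Vwf, Icam2, Tek, Flt1 and Emcn were, like Robo4, highest in Sox9 het sample 1. Pecam1, Cdh5, Eng, Sox18, Tie1, Egfl7 and Kdr were neither highest nor lowest there. The endothelial list, of which 17 of 18 genes were measured and which includes Robo4, had a summed intensity of 31189 to 36327 in double het, 33577 to 41592 in Sox9 het and 32429 to 33316 in Pdx1 het, highest in Sox9 het sample 1 and lowest in double het sample 3. Robo4, itself a member, gave 8708 and 4317 of these last sums, so their order is in part that of a guidance gene. The median log2 ratio of the list was -0.01 over Sox9 het and 0.03 over Pdx1 het. No endothelial marker was at 0, 1 of the 17, Kdr, was in the dimmest 25% of probes, and 0 were called for double het over either single het, but the part of the endothelium in these values was not tested.

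The other class 3 members were close to 0. Sema3b, with 616, 534 and 525 in double het samples, 493, 515 and 519 in Sox9 het samples and 692, 680 and 525 in Pdx1 het samples, had all Sox9 het samples below all others, at a log2 ratio of -0.30 for Sox9 het over Pdx1 het (limma adjusted p = 0.680). Sema3a, Sema3d, Sema3e and Sema3f had log2 ratios between -0.12 and 0.09 in both double het comparisons, and Sema3d and Sema3e were in the dimmest 25% of probes.

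The class 4 semaphorins, which span the membrane and signal largely through B plexins, had all 6 log2 ratios above 0 over both single hets, with medians of 0.27 over Sox9 het and 0.26 over Pdx1 het, beside 0.00 and 0.01 for all genes. None passed the test. Before adjustment, 3 of the 6 had a limma p under 0.05 over Sox9 het, where 27.4% of all genes had, and 2 over Pdx1 het, where 16.1% had. In 6 of the 6, double het sample 3 was the highest of the 9 samples, as it was in 26.1% of all genes. Without that sample the median was 0.16 over Sox9 het, with 6 of 6 above 0, and 0.09 over Pdx1 het, with 5 of 6 above 0.

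Sema4g had 441, 371 and 640 in double het samples, 248, 331 and 339 in Sox9 het samples and 458, 300 and 413 in Pdx1 het samples. The double het samples were above all Sox9 het samples and overlapped the Pdx1 het ones, with log2 ratios of 0.64 ± 0.22 and 0.29 ± 0.22 (limma adjusted p = 0.128 and 0.494), or 0.42 and 0.07 without double het sample 3. Sema4d, a ligand of Plxnb1, had 216, 183 and 292 in double het samples, 138, 166 and 171 in Sox9 het samples and 177, 155 and 231 in Pdx1 het samples, which gives the same picture at log2 ratios of 0.52 and 0.29, or 0.33 and 0.10 without that sample. Sema4b ranged from 249 to 342 in double het, from 205 to 245 in Sox9 het and from 226 to 291 in Pdx1 het, at a log2 ratio over Sox9 het of 0.34, or 0.20 without double het sample 3. Sema4a had 834, 737 and 844 in double het samples and 691, 674 and 698 in Pdx1 het samples, which did not overlap, and 696, 723 and 805 in Sox9 het samples, which did. Sema4c, a ligand of Plxnb2, had 825, 912 and 1023 in double het samples, 756, 789 and 859 in Sox9 het samples and 637, 917 and 690 in Pdx1 het samples, and overlapped both. Sema4f was within 0.12 of 0 on the log2 scale in both double het comparisons.

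**Figure D2:**
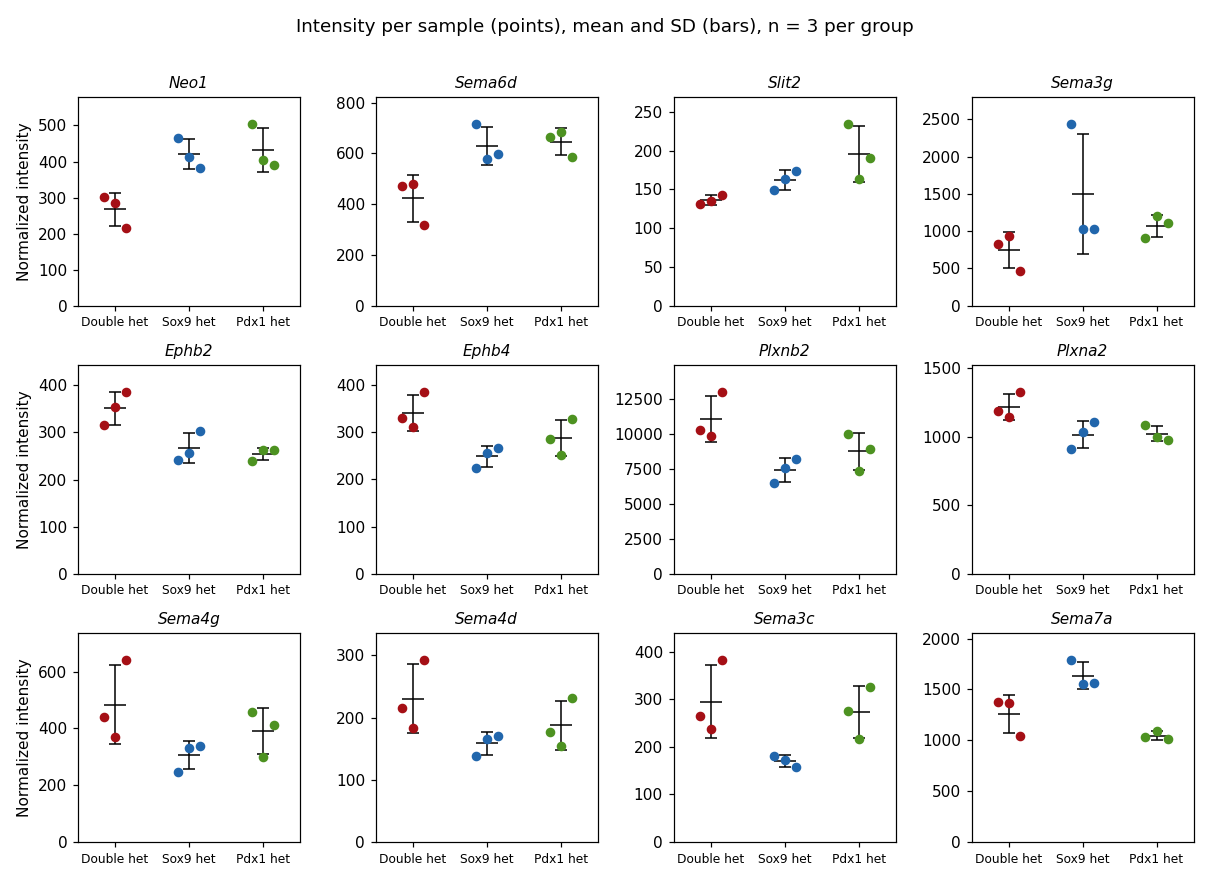
Normalized intensity of 12 guidance genes in each of the 9 samples (points, samples 1 to 3 from left to right within a group), with the group mean and SD (bars, n = 3) on a linear axis from 0. Neo1 and Sema6d are lowest and Ephb2 highest in the 3 double het samples, and for Sema4g, Sema4d and Sema3c double het sample 3 lies well above the other double het samples.

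Among the semaphorins of classes 5 to 7, which are anchored in the membrane, Sema6d had the smallest p-values for the double het. It had 473, 479 and 317 in double het samples, 714, 576 and 596 in Sox9 het samples and 666, 685 and 586 in Pdx1 het samples, so every double het sample was below every single het sample. The log2 ratio was -0.59 ± 0.16 over Sox9 het, -0.63 ± 0.16 over Pdx1 het and -0.61 ± 0.14 over the mean of both, with a 95% interval of -0.92 to -0.30 for the last (limma adjusted p = 0.105, 0.145 and 0.0805). Without double het sample 3 it was -0.39 and -0.44 over the single hets. Sema5b had 856, 1132 and 560 in double het samples, 1678, 1109 and 976 in Sox9 het samples and 965, 1050 and 1024 in Pdx1 het samples, with overlap of the double het with both groups. Its log2 ratio of -0.58 over Sox9 het was -0.31 without double het sample 3.

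Sema7a, a lipid-anchored semaphorin that binds Plxnc1 and integrins, had the member p-value nearest the threshold for Sox9 het over Pdx1 het. It had 1374, 1362 and 1044 in double het samples, 1785, 1551 and 1563 in Sox9 het samples and 1029, 1095 and 1009 in Pdx1 het samples. The Sox9 het samples were above all others, and double het sample 3 lay within the Pdx1 het range while the other double het samples lay between the single hets. That is a log2 ratio of 0.64 ± 0.11 for Sox9 het over Pdx1 het (95% interval 0.39 to 0.90, limma adjusted p = 0.0789), -0.38 for double het over Sox9 het and 0.26 for double het over Pdx1 het, and these double het ratios were -0.25 and 0.39 without double het sample 3. The first passed the test when double het sample 3 was left out (adjusted p = 0.0157), since the fit shares its estimate of the spread over all groups. Sema5a, Sema6a, Sema6b and Sema6c had log2 ratios between -0.21 and 0.22 for the double het over either single het.

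The plexins are the main semaphorin receptors. Of the 8, 4 were higher and 1 lower in double het over Sox9 het at an unadjusted limma p under 0.05, where 14.2% and 13.2% of all genes were. Over Pdx1 het 2 were higher and 2 lower, where 7.77% and 8.38% of all genes were, and 0 were called after adjustment in either comparison. Plxnb2, a receptor for class 4 semaphorins, had 10313, 9884 and 12966 in double het samples, 6467, 7565 and 8183 in Sox9 het samples and 9973, 7364 and 8915 in Pdx1 het samples. The double het samples were above all Sox9 het samples, and 1 Pdx1 het sample lay above 1 double het sample. This gave a log2 ratio of 0.57 ± 0.14 over Sox9 het and 0.34 ± 0.14 over Pdx1 het (adjusted p = 0.101 and 0.300), or 0.45 and 0.22 without double het sample 3. Plxna2 had 1190, 1141 and 1324 in double het samples, 912, 1032 and 1105 in Sox9 het samples and 1083, 1000 and 980 in Pdx1 het samples, with every double het sample above every single het sample. Its log2 ratio was 0.26 over Sox9 het and 0.25 over Pdx1 het, with standard errors of 0.09 (adjusted p = 0.132 and 0.256).

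Plxna1, a receptor that binds Sema6d, had 1646, 1491 and 1971 in double het samples, 1105, 1347 and 1382 in Sox9 het samples and 1588, 1239 and 1541 in Pdx1 het samples, which overlapped the double het. Plxna3 had a like order, with 230, 225 and 328 in double het samples, 170, 192 and 203 in Sox9 het samples and 223, 173 and 242 in Pdx1 het samples. The log2 ratios over Sox9 het were 0.41 for Plxna1 and 0.45 for Plxna3, or 0.30 and 0.28 without double het sample 3. Plxna4 had the opposite direction at a low signal, with 124, 113 and 103 in double het samples, 142, 137 and 130 in Sox9 het samples and 127, 131 and 142 in Pdx1 het samples, and all double het samples were below all others. Plxnb3, in the dimmest 25% of probes, had 121, 107 and 100 in double het samples, 110, 103 and 102 in Sox9 het samples and 137, 127 and 139 in Pdx1 het samples, so that the Pdx1 het samples were above all others. Plxnb1 and Plxnc1 had log2 ratios between -0.15 and 0.14 for the double het.

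The neuropilins, which bind class 3 semaphorins and vascular growth factors, overlapped between all groups. Nrp1 had 898, 804 and 1132 in double het samples, 742, 773 and 866 in Sox9 het samples and 926, 856 and 950 in Pdx1 het samples. Nrp2 had 5199, 4957 and 6758 in double het samples, 8416, 5519 and 4849 in Sox9 het samples and 5324, 5566 and 5484 in Pdx1 het samples, highest in Sox9 het sample 1.

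Of the netrin system, Neo1 carried the smallest p-values of all 61 members for the double het over each single het. Neo1 had 301, 285 and 215 in double het samples, 466, 413 and 383 in Sox9 het samples and 503, 404 and 389 in Pdx1 het samples. Every double het sample was below every single het sample, and the single hets overlapped each other. On the log2 scale the ratio was -0.67 ± 0.15 over Sox9 het, -0.70 ± 0.15 over Pdx1 het and -0.68 ± 0.13 over the mean of both, with a 95% interval of -0.97 to -0.40 for the last (limma adjusted p = 0.0938, 0.122 and 0.0663). Without double het sample 3, the lowest, it was -0.52 and -0.55 over the single hets. With the replicate number as a block it passed over Sox9 het (limma adjusted p = 0.0437) and over the mean of the single hets (0.0285). Whether same-numbered samples belong together is not stated.

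Ntn1, a secreted netrin that attracts or repels axons, had 313, 341 and 297 in double het samples, 294, 361 and 372 in Sox9 het samples and 240, 165 and 317 in Pdx1 het samples, and all groups overlapped. This gave a log2 ratio of 0.55 for Sox9 het over Pdx1 het and 0.30 without Pdx1 het sample 2, the lowest. Ntn4, a netrin of basement membranes, ranged from 97 to 156 in double het, from 115 to 173 in Sox9 het and from 108 to 137 in Pdx1 het. Dcc, a receptor of commissural axons, was in the dimmest 25% of probes, at 70 to 80 in double het, 70 to 125 in Sox9 het and 74 to 80 in Pdx1 het. Ntn2l, whose current symbol is Ntn3, does not have the form of symbol by which members were chosen, and its log2 ratio was 0.03 over Sox9 het and -0.11 over Pdx1 het.

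Slit2, a secreted ligand of the Robo receptors, had 131, 135 and 143 in double het samples, 149, 163 and 174 in Sox9 het samples and 234, 163 and 191 in Pdx1 het samples. All double het samples were below all single het samples at a low signal. The log2 ratio was -0.25 ± 0.12 over Sox9 het and -0.51 ± 0.12 over Pdx1 het (limma adjusted p = 0.221 and 0.144), and the second was -0.37 without Pdx1 het sample 1. Slit3, a further secreted Slit, had 2228, 2215 and 2525 in double het samples, 1747, 1997 and 2406 in Sox9 het samples and 2179, 1975 and 2059 in Pdx1 het samples, and Slit1 lay between 133 and 171 in all samples. The log2 ratios of both were between 0.14 and 0.19 for the double het over either single het.

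Robo2 had 133, 128 and 127 in double het samples, 117, 108 and 120 in Sox9 het samples and 115, 109 and 124 in Pdx1 het samples, above all single het samples by a few units, at log2 ratios of 0.17 and 0.16. Robo4, an endothelial Robo, had 5655, 7094 and 4317 in double het samples, 8708, 6800 and 6711 in Sox9 het samples and 5985, 5997 and 6121 in Pdx1 het samples. The double het samples spread across both other groups. Its log2 ratio of -0.40 over Sox9 het was -0.22 without double het sample 3. Robo1 ranged from 1509 to 2204 in double het, from 1606 to 2528 in Sox9 het and from 1702 to 1953 in Pdx1 het, and Robo3 was in the dimmest 25% of probes.

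Set over all families, 9 of the 61 members (14.8%) had all 3 double het samples beyond all 6 single het samples, where 14.2% of all genes did. Efnb3, Ephb2, Plxna2 and Robo2 were above, where 7.03% of all genes were, and Efnb1, Neo1, Plxna4, Sema6d and Slit2 below, where 7.14% were. For double het over Sox9 het alone, 28 members did not overlap, which is 45.9% against 35.3% of all genes, and for double het over Pdx1 het 15, which is 24.6% against 22.9%. For Sox9 het over Pdx1 het the count was 13, which is 21.3% against 12.6%, with Sema7a, Epha1, Epha4, Efna5, Efnb1 and Robo4 higher and Sema3c, Sema3b, Efna2, Efna3, Efna4, Plxnb3 and Sema6a lower in Sox9 het. Double het sample 3 was the highest of the 9 samples in 22 members, against 26.1% of all genes, and the lowest in 17, against 27% of all genes. Together these are 63.9% of members and 53.1% of all genes. Without this sample, the log2 ratio moved by over 1.5 times or changed sign in 24 of the 49 members at 0.1 or more from 0 over Sox9 het, and in 20 of 40 over Pdx1 het, and most of these lay nearer to 0 (21 and 19). Such moves were not counted over all genes, so these counts are not particular to the members. Sox9 het sample 1 was the highest or the lowest in 32 members, 52.5% against 41.1% of all genes.

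**Figure D3:**
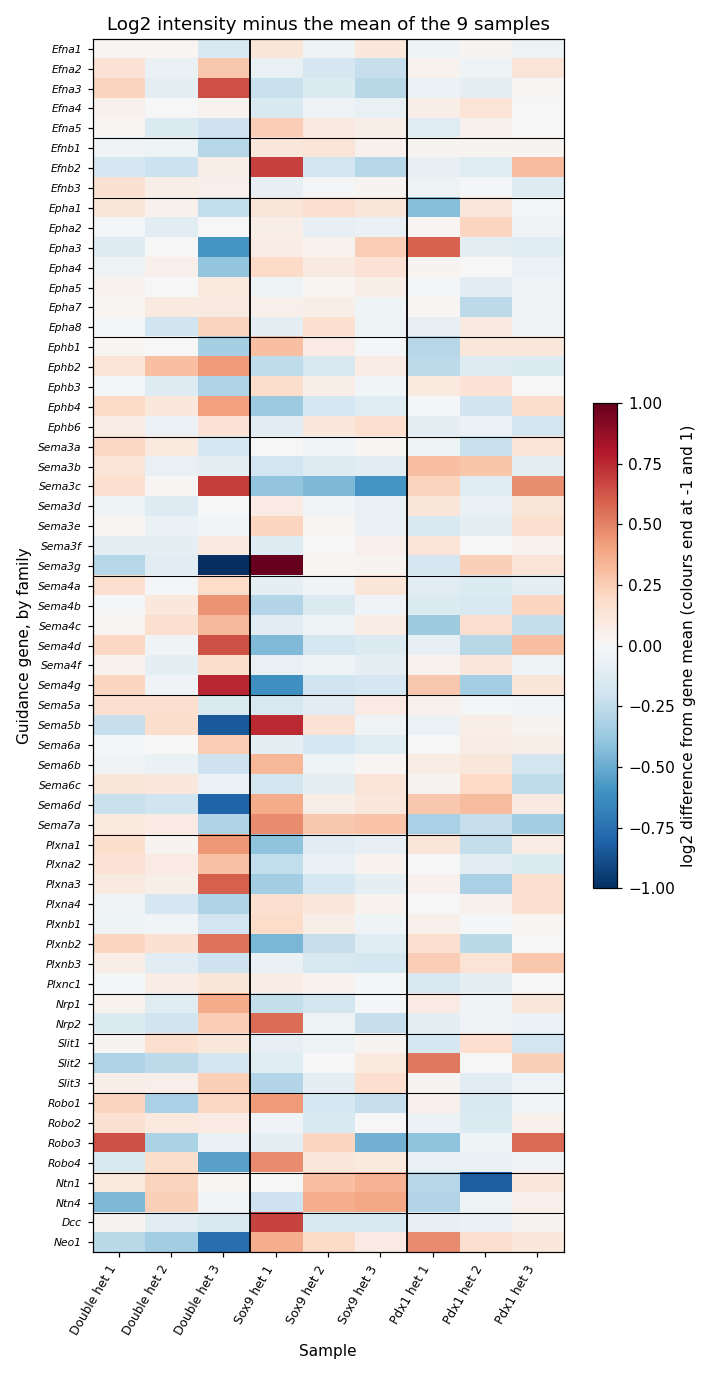
Log2 intensity of the 61 guidance genes in each sample minus the gene's mean over the 9 samples, in rows by family and with double het, Sox9 het and Pdx1 het samples from left to right. The strongest colours lie in double het sample 3 and Sox9 het sample 1, and the class 4 semaphorins are all at their highest in double het sample 3.

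The authors' deposited table gives an FDR for the double het over each single het, by a method not given in the sources used here. At an FDR under 0.05 in the authors' deposited table, 20 of the 61 members passed over Sox9 het (32.8% against 23.1% of all genes) and 15 over Pdx1 het (24.6% against 17.3%). By direction, the authors' deposited table had 11 higher and 9 lower over Sox9 het, where 12% and 11.1% of all genes passed, and 9 higher and 6 lower over Pdx1 het, where 8.31% and 8.94% passed. These lists of the authors' deposited table hold 18 and 10 members with an unadjusted limma p under 0.05, and 18 and 8 whose groups did not overlap. The like shares among all genes that passed by that FDR were not computed, so these counts describe the members only. In the authors' deposited table Neo1 had an FDR of 5.35e-05 over Sox9 het and 2.35e-05 over Pdx1 het, and Sema6d 6.31e-04 and 8.2e-05. Ephb2 had 0.00283 and 2.26e-04, and Sema3c 3.27e-05 and 0.413, in the authors' deposited table. Sema3g passed there over both single hets, at 0.00368 and 0.00651 in the authors' deposited table, although its double het and Pdx1 het samples overlapped. In 56 and 57 of the 61 members the FDR of the authors' deposited table was below the limma adjusted p, and the like share of all genes was not computed.

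**Figure D4:**
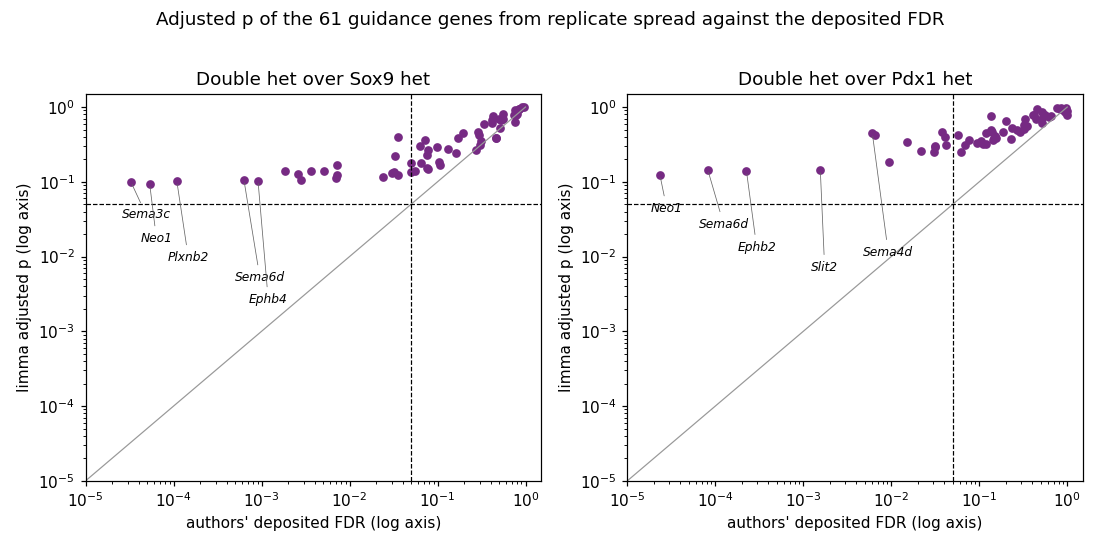
Limma adjusted p of each of the 61 guidance genes (vertical, log axis) against the FDR of the authors' deposited table (horizontal, log axis), over Sox9 het on the left and over Pdx1 het on the right, with dashed lines at 0.05 and a solid line where both are equal. No point lies below the horizontal dashed line, while 20 and 15 points lie left of the vertical one.

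Genes that act with the guidance families were read from 5 lists. For the double het over either single het, 0 of 13 other netrin receptors and repulsive guidance molecules, 0 of 23 Eph and ephrin transducers, 0 of 29 plexin and neuropilin transducers, 0 of 16 Robo and Slit transducers and 0 of 22 other guidance and adhesion molecules passed the limma test after adjustment. Before adjustment, 6, 8, 10, 7 and 5 of them had a p under 0.05 over Sox9 het, in the same order of lists, where 27.4% of all genes had. Over Pdx1 het the counts were 3, 7, 1, 2 and 4, where 16.1% of all genes had such a p. Their median log2 ratios over Sox9 het were 0.03, 0.01, 0.01, 0.21 and 0.05, beside 0.00 for all genes, and over Pdx1 het 0.01, 0.03, 0.00, 0.08 and 0.03, beside 0.01. Ntng1, a membrane-bound relative of the netrins, had 349, 324 and 337 in double het samples, 448, 496 and 463 in Sox9 het samples and 440, 512 and 425 in Pdx1 het samples, with log2 ratios of -0.48 and -0.44 (adjusted p = 0.0715 and 0.105). Rgma, a neogenin ligand, had 8079, 7686 and 7193 in double het samples, 9314, 9855 and 10120 in Sox9 het samples and 7853, 9201 and 7634 in Pdx1 het samples, below Sox9 het at a log2 ratio of -0.35 and overlapping Pdx1 het.

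For Sox9 het over Pdx1 het, 1 Eph transducer and 1 Robo and Slit transducer passed. Ngef, the exchange factor ephexin that acts downstream of EphA receptors, had 339, 332 and 324 in double het samples, 260, 247 and 266 in Sox9 het samples and 390, 386 and 360 in Pdx1 het samples, with the double het between the single hets. Its log2 ratio was -0.56 for Sox9 het over Pdx1 het (limma adjusted p = 0.0167). Cxcr4, the receptor of the chemokine Cxcl12, whose signalling Slits can dampen, had 233, 201 and 230 in double het samples, 150, 144 and 161 in Sox9 het samples and 240, 278 and 270 in Pdx1 het samples. The Sox9 het samples were below all others, at a log2 ratio of -0.79 for Sox9 het over Pdx1 het (adjusted p = 0.0152).

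Markers of other cell types were read beside the members. The neuronal list, with 15 of 17 genes measured, had a summed intensity of 10883 to 11261 in double het, 12657 to 14747 in Sox9 het and 12041 to 13117 in Pdx1 het, and its median log2 ratio was -0.31 over Sox9 het and -0.16 over Pdx1 het. Before adjustment, 1 of the 15 was higher and 7 lower over Sox9 het at a limma p under 0.05, where 14.2% and 13.2% of all genes were, and 0 higher and 4 lower over Pdx1 het, where 7.77% and 8.38% were. Its members lay on both sides of 0, with Hand2 at 0.44 over Sox9 het and 0.12 over Pdx1 het and Phox2a at 0.11 and 0.32. The list of neural crest and glia, with 9 of 11 measured, summed to 3041 to 3079 in double het, 3478 to 4669 in Sox9 het and 3413 to 3963 in Pdx1 het. Ngfr alone gave 2372 of the 4669. Before adjustment, 0 of the 9 were higher and 5 lower over Sox9 het, and 0 higher and 4 lower over Pdx1 het, beside the same shares of all genes. The median log2 ratios of this list were -0.31 and -0.21. Tubb3, a tubulin of neurons, had 637, 541 and 546 in double het samples, 917, 845 and 733 in Sox9 het samples and 639, 760 and 937 in Pdx1 het samples. The endocrine list, with 21 of 22 measured, summed to 46382 to 54076 in double het, 53531 to 70483 in Sox9 het and 55878 to 66157 in Pdx1 het. Chgb and Chga gave 22435 and 19424 of the 70483. Before adjustment, 0 of the 21 were higher and 5 lower over Sox9 het, and 0 higher and 6 lower over Pdx1 het, at median log2 ratios of -0.21 and -0.19. The erythroid list, with 11 of 13 measured, summed to 288633 in double het sample 3, against 167077 and 167204 in the other double het samples. Its sums were 172563 to 192051 in Sox9 het, and 158078, 172550 and 248249 in Pdx1 het samples. None of these lists, nor the mesenchymal (22 of 24 measured) and white blood cell (10 of 12) ones, had a gene called for the double het over either single het. In the mesothelial list, with 8 of 10 measured, 1 was called, Krt19 over Sox9 het. Its log2 ratio was 0.84 (limma adjusted p = 0.0341), while the median of that list over Sox9 het was -0.03. The other measured genes of that list lay between -0.32 (Msln) and 0.18 (Bnc1). Krt19 had 2167, 1828 and 2548 in double het samples, 1111, 1243 and 1285 in Sox9 het samples and 1897, 1605 and 1640 in Pdx1 het samples. Over Pdx1 het its log2 ratio was 0.34 (limma adjusted p = 0.257). Krt19 is a keratin, as is the epithelial marker Krt8, and whether its signal came from mesothelium was not tested. No gene of these lists was at 0, and the part of these cells in the guidance gene values was not tested.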

How the data were processed

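Per the labels' protocols, Cy3-labelled RNA was measured on 1-colour Agilent arrays. The authors deposited 1 normalized intensity per gene and sample as a whole number. Neither the normalization nor the choice of 1 probe per gene is given in the sources used. Log2 ratios and FDR values, read as an adjusted p-value (q-value), are those the authors deposited per the file headers, and the submitters' processing notes name limma without a role. Log2 of the intensities gave the deposited ratios within 1e-07 for all 18541 genes. The table of ratios also holds 9 columns, 1 per array, whose names match no sample label, and these were not used.

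Log2 intensities of 9 samples in 3 groups were fitted with limma 3.58.1 (R 4.3.3), with Benjamini-Hochberg adjustment over 18541 genes and a threshold of 0.05. The fit was tested on simulated data. Array data give no read depth, so the number of arrays limits precision. The replicate number as a block, scaling, a filter on dim probes, the threshold and leaving out samples were the alternatives. Members, lists and tests were chosen with earlier results of these data known. By rule, all members may be named, with up to 3 per family by smallest adjusted p, and in sample detail also those the text turns on. Epha6, Epha10, Plxnd1 and Ntn5 were not analysed here.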

Additional observations from a re-analysis of the deposited data

How the results depend on the processing

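Of the 61 members, the number called was 0 in every comparison as reported. For double het over Sox9 het it was 1 (Neo1) with the replicate number as a block, 2 (Neo1, Sema3c) at a threshold of 0.1 and 20 with the FDR of the authors' deposited table, and for double het over Pdx1 het it was 15 with that FDR and 0 with the block. For Sox9 het over Pdx1 het it was 1, Sema7a in each case, without the dimmest 25% of probes (limma adjusted p = 0.0497), with only those 2 groups in the fit (0.0338), at a threshold of 0.1, and without double het sample 3 and Sox9 het sample 1 together (0.0416), a setting chosen after seeing the data. For double het over the mean of the single hets it was 1 (Neo1) with the block, 1 (Neo1, 0.0394) without the dimmest 25% of probes, and 4 (Ephb2, Neo1, Plxnb2, Sema6d) at a threshold of 0.1. Leaving out 1 sample at a time gave 0 to 1 calls for Sox9 het over Pdx1 het, the 1 being Sema7a without double het sample 3, and 0 to 0 in the other comparisons. None of the 62 member ratios with an unadjusted limma p under 0.05 as reported changed sign over 20 settings. These ratios were chosen by p in the same data, and only scaling and leaving out samples could change a ratio. In 42 cases a value passed where the reported one did not. Of these, 18 over Sox9 het and 10 over Pdx1 het passed by the FDR of the authors' deposited table. Over all 61 members, without double het sample 3, the log2 ratio changed sign in 3 over Sox9 het and 14 over Pdx1 het, of which Sema3c (-0.10, as reported 0.10), Epha4 (0.01, as reported -0.12) and Robo4 (0.07, as reported -0.11) over Pdx1 het had been at least 0.1 from 0. Sign changes were not counted for the whole array. Over all genes, the count called for double het over Sox9 het was 57 as reported, 3 with only those 2 groups in the fit and 24 without double het sample 3. For double het over the mean of the single hets it was 25 as reported, 71 with the block and 243 without the dimmest 25%. Deviations from the group mean correlated at -0.177 to 0.239 between same-numbered samples. Samples of different numbers were not compared, so whether the numbers pair the samples was not tested. The slide as a block was not run, because no column name ties slides to samples, and adjustment over all probes of the matrix was not run, because it is the same set of genes.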
